A study of Rattus norvegicus with 8 samples.

Results

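The comparison set 4 epileptogenic arrays against 4 control arrays from the rat amygdala, which are 8 of the 8 arrays of the series. Members were chosen by their labels alone: every array labelled epileptogenic or control entered, in either training, with the training and the replicate letter (A or B) as terms of the model. The lateral and basal nuclei on the side of the electrode were cut out by laser microdissection. Epileptogenic rats had status epilepticus induced by stimulation of the amygdala and had shown no spontaneous seizures. Control rats were operated in the same way and received no stimulation. All rats, controls included, had 5 habituation sessions and, on day 8, 2 trials, each with a footshock of 1.5 mA for 1 s and a tone of 75 dB for 20 s. Tone and shock were coupled in paired training and separated in unpaired training, and tissue was taken 3 h later. Condition and training thus made 4 groups of 2 arrays, each hybridised with amplified RNA pooled from 2 of the 4 rats of its group, 16 rats in all. What the letters A and B mark is not given in the labels. The p-values measure the spread between these pools of rats that remains once training and letter are taken out.

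Epileptogenesis is the period between a brain insult and the first spontaneous seizures. In the basolateral amygdala it is known for loss of neurons, reactive glia, altered receptors and channels, and remodelling of the matrix around cells. The glutamatergic projection neurons of these nuclei excite their targets through AMPA, kainate and NMDA receptors, and GABA released by local interneurons restrains them. Because the tissue holds many cell types, fewer cells of a type and less RNA per cell cannot be told apart in these arrays.

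The values are signal intensities, compared as log2 signal, and the median signal of an array lay between 29 and 43.2. A gene is said to have risen or fallen where limma's test, adjusted over 18625 probe sets by the Benjamini-Hochberg method, gave a p under 0.05. Differences are epileptogenic minus control in log2 units with their standard error (SE) from this fit, and n is 4 arrays per condition. Of 10364 named genes tested, 975 rose (9.41%) and 780 fell (7.53%). Among probe sets, 1400 rose (7.52%) and 1542 fell (8.28%), which is 15.8% in either direction, and 5737 had an unadjusted p under 0.05. The 8 arrays limit the precision. Centring every array on its median moved the median difference of all probe sets from -0.11 to -0.005, and with it the share of rises among the probe sets that passed from 47.6% to 67.8% (1625 rises and 772 decreases). The median difference of all genes was -0.07, and family medians below are to be read against it.

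Without the letter, 485 genes rose (4.68%) and 144 fell (1.39%). All of these also passed with the letter, which added 490 rises and 636 decreases. Each group holds an A and a B array, so the letter left every log2 difference as it was and changed only its error. The median SE over genes was 0.256 without the letter and 0.194 with it, and the median residual standard deviation of the model went from 0.389 to 0.294. These SEs are moderated: limma draws the error of each probe set toward that of others of similar signal. The SE was smaller with the letter for all 10364 genes. A call gained with the letter therefore does not by itself mark a gene that differs between the letters. The added decreases were smaller (median -0.65) than those found without the letter (median -0.94). After median centring 224 of the 636 still fell, and over all genes 1133 rose (10.9%) and 368 fell (3.55%). Whether or not they passed the test, 960 of the 10364 genes had all 4 epileptogenic arrays above all 4 control arrays (9.26%) and 759 had them below (7.32%). All 780 decreases and all 975 rises had the same sign within the A arrays and within the B arrays. The test itself favours this, because a difference that changes sign between the letters enlarges the error. The agreement is therefore no separate support for the calls.

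Leaving out single arrays took the probe sets that passed from 2942 to between 1563 and 2596. The total was 1563 without control unpaired B, 1637 without epileptogenic unpaired B and 1863 without epileptogenic paired A. Decreases numbered 607 when control unpaired B was left out, 730 for epileptogenic unpaired B, 893 for epileptogenic paired A, 933 for control unpaired A and 1016 for control paired A. In all 8 such fits 255 of the decreased genes and 569 of the increased genes passed. A gene named below as risen or fallen passed in every one of those fits and after median centring unless the text says otherwise. Of the 138 named genes that passed, 38 passed only with the letter: Acadl, Asic2, Atp6v0e1, Atp6v0e2, Bhlhe22, Bsn, Cacna2d1, Cacnb2, Calb1, Camk2a, Cdkn1a, Cntn6, Cpeb3, Dnajc3, Epha5, Fgf13, Fgf9, Gabbr2, Grin2a, Kcnd2, Kcnip4, Map7d2, Mbnl1, Mcm7, Mt3, Myo1e, Nefl, Npy1r, Ntf3, Per1, Pex5l, Pnck, Rgs17, Rgs4, Septin10, Tafa1, Vamp2 and Vamp3.

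**Figure D1:**
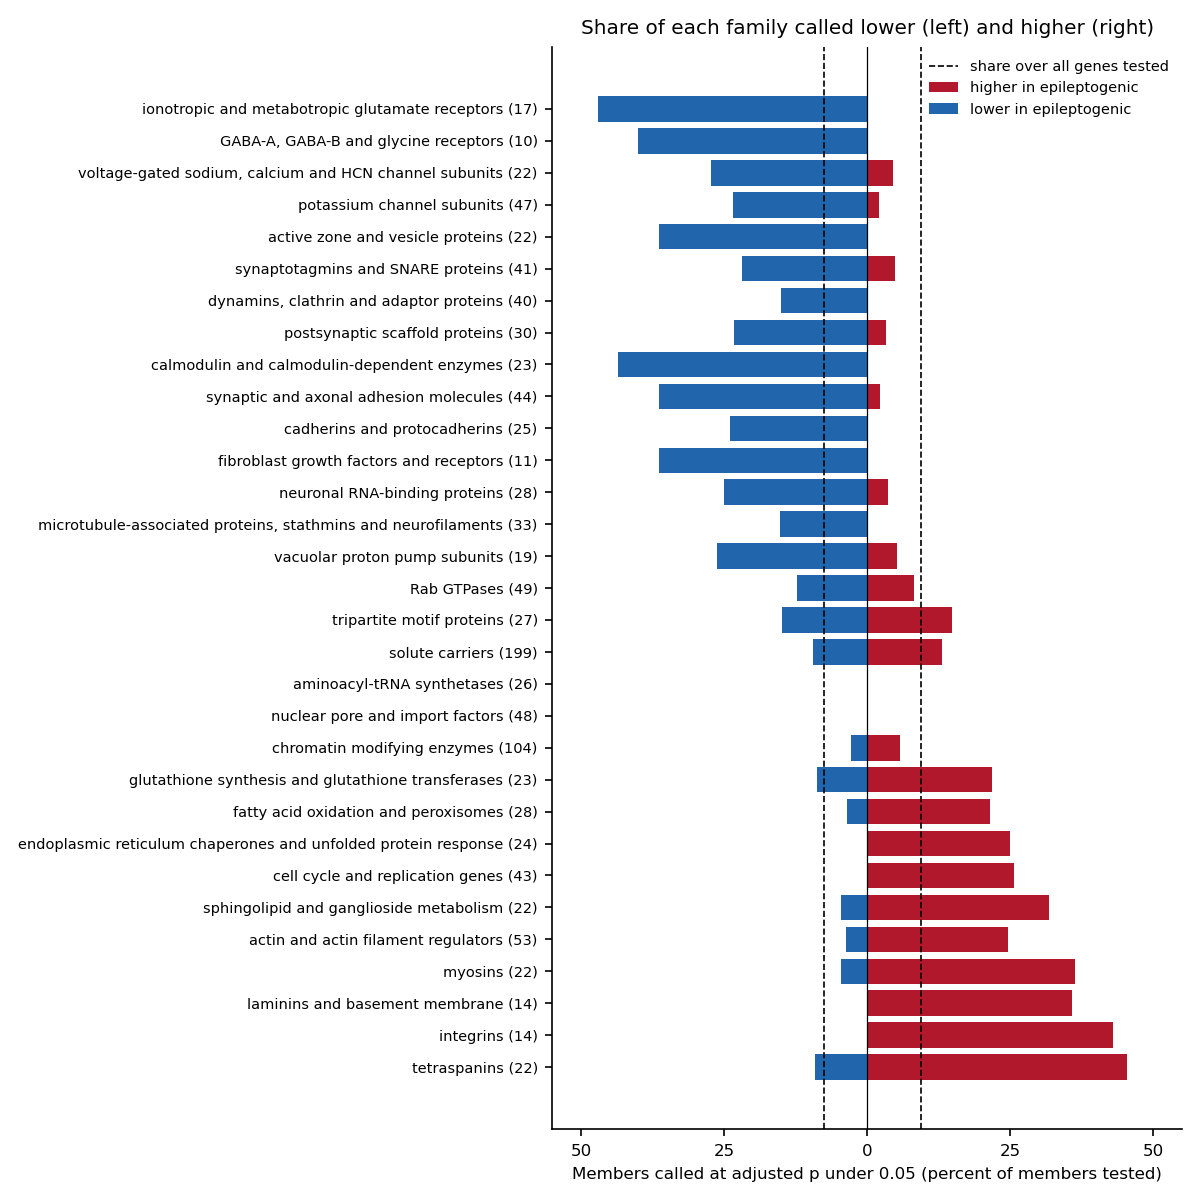
Share of the tested members of each gene family plotted that fell (blue, left) or rose (red, right) in epileptogenic arrays, as percent of the members tested, whose number stands in brackets. Dashed lines mark the share over all 10364 genes, 7.53% for decreases and 9.41% for rises; glutamate receptors (47.1% fell) and tetraspanins (45.5% rose) lie at the ends of the plot.

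Members of all 3 ionotropic classes of receptor for glutamate, the main excitatory transmitter, were among the genes that fell. Of 24 glutamate receptor genes on the array, 17 passed the filter on dim probe sets and were tested. Of these 17, 8 fell (47.1%) and 0 rose, with a median difference of -0.79. The AMPA receptor subunits Gria1 (-0.93, SE 0.16) and Gria3 (-1.05, SE 0.17) fell, as did the kainate receptor subunit Grik2 and the NMDA receptor subunit Grin2a (-1.08, SE 0.25). Grik2 read 9.24 and 8.89 on the control A arrays (unpaired, then paired), 8.62 and 8.46 on control B, 7.82 and 8.29 on epileptogenic A, and 7.53 and 7.70 on epileptogenic B. Every epileptogenic array lay below every control array, a difference of -0.97 (SE 0.16, limma adjusted p = 0.00255). Of Grin2a, 1 of 2 probe sets moved the other way (0.37), and its call was lost without control paired B or epileptogenic unpaired B (adjusted p up to 0.0627). The count of 8 was 3 without the letter and 6 after median centring, and leaving out control unpaired B, epileptogenic unpaired B or epileptogenic paired A gave 5, 3 and 5.

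Of 10 GABA and glycine receptor genes tested (22 on the array), 4 fell (40%), with a median of -0.57. They include Gabra5 (-1.16, SE 0.19) and Gabrb2 (-1.02, SE 0.13), subunits of the GABA-A chloride channel. Gabbr2, a subunit of the metabotropic GABA-B receptor that couples to G proteins, read 8.37 and 8.60 on control A and 9.38 and 9.49 on control B. On epileptogenic arrays it read 7.53 and 7.76 (A) and 8.18 and 8.24 (B). The B arrays were higher in both conditions, and the difference of -1.03 (SE 0.13) passed with the letter (limma adjusted p = 0.000789) and not without it (adjusted p = 0.0691). Without the letter 2 members fell, and 3 fell after centring.

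Among voltage-gated sodium, calcium and HCN channel subunits, 6 of 22 fell (27.3%) and 1 rose, with a median of -0.47 and 21 of 22 differences negative. Scn2a, a sodium channel of axons, fell by 0.87 (SE 0.12), and Cacnb2, an auxiliary calcium channel subunit, by 0.73 (SE 0.15). Cacna2d1, the calcium channel subunit that binds gabapentin, read 8.16 and 8.11 on control A, 9.58 and 8.71 on control B, 6.66 and 7.17 on epileptogenic A, and 7.55 and 8.18 on epileptogenic B. The conditions overlapped over all arrays and were separate within each letter. The letter model and part of the naming rule favour such separation, so it is no separate result, for Cacna2d1 or for the genes below. The difference was -1.25 (SE 0.22, limma adjusted p = 0.00407 with the letter and 0.0962 without it). Without the letter 1 member of this group fell, and after centring 5 fell.

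Of 47 genes for potassium channels and their partners tested (77 on the array), 11 fell (23.4%) and 1 rose, with a median of -0.43. Kcnd2 carries the transient A-type current of dendrites, and Kcnip4 (-0.89, SE 0.18) and Dpp10 (-0.86, SE 0.15) are auxiliary subunits of that channel. Kcnd2 read 11.01 and 10.69 on control A, 9.90 and 9.96 on control B, 9.38 and 10.24 on epileptogenic A, and 9.07 and 9.34 on epileptogenic B. Here the A arrays were the higher ones, and the difference of -0.88 (SE 0.18) had an adjusted p of 0.00776 with the letter and 0.135 without it in limma. The 11 decreases were 1 without the letter and 5 after centring. They were 6 without control unpaired B, 6 without control paired B, 4 without epileptogenic unpaired B and 7 without epileptogenic paired A.

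At the presynaptic side, 8 of 22 active zone and vesicle genes fell (36.4%) and 0 rose, with 22 of 22 differences negative. Syn2, a synapsin that tethers synaptic vesicles, read 9.38 and 9.27 on control A, 9.40 and 9.80 on control B, 8.62 and 8.24 on epileptogenic A, and 8.52 and 8.58 on epileptogenic B. The conditions did not overlap, and the difference of -0.97 (SE 0.14, limma adjusted p = 0.00169) also passed without the letter. Bsn, a scaffold of the active zone, fell by 1.08 (SE 0.26), although not without control unpaired A, control unpaired B or epileptogenic unpaired B (adjusted p up to 0.0711). Without the letter 3 of the group fell and after centring 6, and 5 fell without control unpaired B, control paired A or epileptogenic unpaired B.

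Of 41 synaptotagmins, SNARE proteins and their partners, 9 fell (21.9%) and 2 rose. The vesicle SNARE Vamp2 fell by 0.70 (SE 0.14) and Cplx2, a complexin that clamps vesicle fusion, by 0.84 (SE 0.16). The 9 decreases were 1 without the letter and 3 after centring, and leaving out control unpaired B, epileptogenic unpaired B or epileptogenic paired A gave 4, 4 and 5, while the rises were 1 without control unpaired B. Of 40 dynamins, clathrin and adaptor genes, which retrieve vesicle membrane, 6 fell (15%), led by Dnm3 (-1.15, SE 0.22). That count was 1 without the letter and 2 after centring. Leaving out a control array gave 3 (unpaired A), 1 (unpaired B), 2 (paired A) or 3 (paired B), and leaving out an epileptogenic array gave 2 (unpaired B) or 3 (paired A).

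Behind the synapse, 7 of 30 postsynaptic scaffold genes fell (23.3%) and 1 rose. Ddn, dendrin, a dendritic protein, fell by 1.49 (SE 0.20) and Dlgap1, which links scaffolds to receptors, by 0.93 (SE 0.12). Of 23 genes for calmodulin and the enzymes it controls, 10 fell (43.5%) and 0 rose, with a median of -0.49. Camk2a, the kinase subunit needed for synaptic plasticity, belongs to both lists and to that of excitatory projection neurons. Some other genes that fell also stand in several of the families described here, so the family counts are not independent. Camk2a read 8.17 and 8.09 on control A, 7.42 and 7.21 on control B, 7.51 and 7.23 on epileptogenic A, and 6.36 and 6.31 on epileptogenic B. Control B overlapped epileptogenic A, whereas within each letter the conditions were apart. Its difference of -0.87 (SE 0.15) had a limma adjusted p of 0.00317 with the letter and 0.172 without it. The transcription factor Camta1 fell by 0.98 (SE 0.14), but another of its 3 probe sets passed in the opposite direction, and they ranged from -0.98 to 0.58. Pnck, a kinase of the CaM kinase I group that stands outside these lists, fell by 1.26 (SE 0.27) only with the letter.

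The calmodulin count was 2 without the letter and 5 after centring. It was 6 without control unpaired A and 5 without control unpaired B, control paired B or epileptogenic unpaired B. For the scaffolds it was 2 without the letter, and 4 after centring or without control unpaired B.

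**Figure D2:**
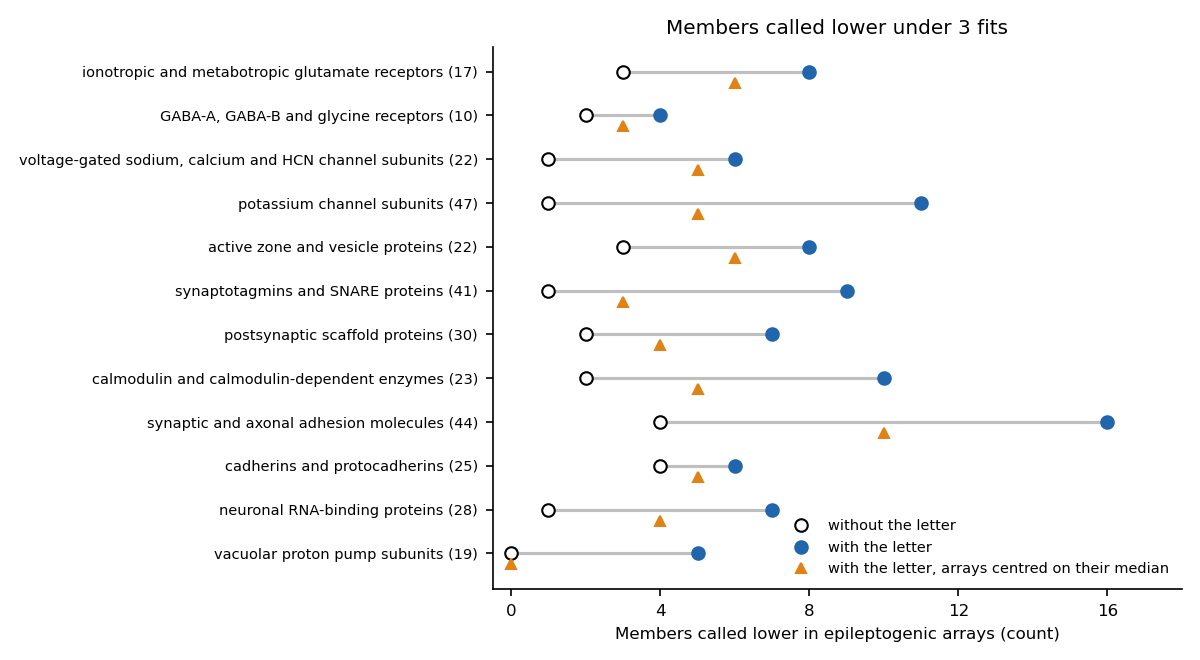
Number of members that fell in 12 families in the model without the letter (open circles), with the letter (blue circles) and with the letter after each array was centred on its median (orange triangles); tested members in brackets. Adhesion molecules went from 4 to 16 with the letter and stood at 10 after centring, and proton pump subunits went from 0 to 5 and back to 0.

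Of 44 synaptic and axonal adhesion molecules, 16 fell (36.4%) and 1 rose, with 41 of 44 differences negative and a median of -0.51. The contactins Cntn4 (-1.30, SE 0.25) and Cntn6 (-1.14, SE 0.22), which guide axons, and Lrfn1 (-0.98, SE 0.18), which organises synapses, led the decreases. Cadherins and protocadherins, the calcium-dependent adhesion molecules, fell in 6 of 25 cases (24%) with 0 rises: Cdh22 fell by 1.06 (SE 0.23), Pcdh17 by 0.95 (SE 0.15), Pcdh19 by 0.90 (SE 0.15) and Cdh13 by 0.87 (SE 0.18). Ephrin-B3, Efnb3, fell by 1.08 (SE 0.15). Its relative, the ephrin receptor Epha5, read 8.45 and 8.74 on control A, 10.01 and 9.88 on control B, 8.10 and 7.58 on epileptogenic A, and 9.09 and 9.17 on epileptogenic B. For Epha5 the letter difference (1.32, B minus A) exceeded the condition difference (-0.78, SE 0.15), and the limma adjusted p was 0.00575 with the letter and 0.357 without it. The adhesion molecules that fell were 4 without the letter, 10 after centring, 7 without control unpaired B and 8 without epileptogenic unpaired B.

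Of 14 integrins tested, the receptors that tie cells to matrix, 6 rose (42.9%) and 0 fell, with a median of 0.57. Itga6, a laminin receptor subunit, read 9.52 and 9.42 on control A, 10.15 and 9.34 on control B, 10.89 and 11.12 on epileptogenic A, and 11.18 and 11.31 on epileptogenic B. No array overlapped between the conditions, a difference of 1.52 (SE 0.16, limma adjusted p = 0.000241), although 1 of its 3 probe sets gave -0.40. Itgb1, the common partner subunit, rose by 1.21 (SE 0.15), and the leukocyte integrins Itgb2 and Itgal rose by 2.15 (SE 0.21) and 1.43 (SE 0.30). Of 14 laminins and other basement membrane genes, 5 rose (35.7%) and 0 fell, among them the laminin chain Lamb2 (1.20, SE 0.16) and the collagen chain Col4a5 (1.07, SE 0.15). This last count was 2 without the letter or without epileptogenic paired A, and 3 without control unpaired A, control unpaired B, control paired A, control paired B or epileptogenic unpaired B.

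Tetraspanins, membrane proteins that cluster integrins and mark endosomes and exosomes, had 10 of 22 members higher (45.5%) and 2 lower. Cd9 rose by 2.04 (SE 0.19) and the leukocyte tetraspanin Cd53, which is also on the microglial list, by 1.25 (SE 0.20). Cd63, the tetraspanin of late endosomes, read 9.04 and 8.77 on control A, 9.35 and 9.09 on control B, 10.10 and 9.77 on epileptogenic A, and 10.83 and 10.37 on epileptogenic B. All epileptogenic arrays were the higher ones (1.21, SE 0.12, limma adjusted p = 0.000179). Without the letter or without control unpaired B, 6 members rose. The 2 decreases were 0 without the letter and after centring, 1 without control unpaired A, and 0 without control unpaired B, control paired A, control paired B, epileptogenic unpaired B or epileptogenic paired A.

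Of 53 actin genes and filament regulators, 13 rose (24.5%) and 2 fell, with a median of 0.18. Msn, moesin, which anchors actin to the membrane, read 7.13 and 6.81 on control A, 6.69 and 6.48 on control B, 8.68 and 8.91 on epileptogenic A, and 8.71 and 8.45 on epileptogenic B. The lowest epileptogenic array was above the highest control array, and the difference of 1.91 (SE 0.15) had a limma adjusted p of 4.21e-05. The filament elongator Vasp rose by 1.91 (SE 0.24), the crosslinker Flnc by 1.90 (SE 0.17) and the severing protein Gsn by 1.85 (SE 0.15). The 2 actin decreases were 0 without the letter, after centring, and without control unpaired A or control paired A, and 1 without control unpaired B, control paired B, epileptogenic unpaired B, epileptogenic paired A or epileptogenic paired B. Microtubule-associated proteins, stathmins and neurofilaments had 0 rises and 5 decreases among 33 genes (15.2%), with 29 of 33 differences negative. Map7d2 (-0.81, SE 0.15) and Nefl (-0.80, SE 0.14), the light neurofilament chain, fell only with the letter, and Stmn2 (-0.65, SE 0.13), of growing axons, fell in both models. That count was 1 without the letter and 9 without epileptogenic unpaired A.

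Of 22 myosins, 8 rose (36.4%) and 1 fell. The decrease was that of Myo16, an unconventional myosin of neurons (-3.26, SE 0.42, limma adjusted p = 0.000762), the largest decrease of all genes that passed. Its epileptogenic mean (log2 2.74) lay below the filter level of 4.35, so that it stood outside the naming rule and was chosen after its value was seen. Among the rises was Myl12a, a regulatory light chain, at 0.94 (SE 0.15). Myo1e, a membrane-bound motor, rose by 0.98 (SE 0.25) with all arrays and failed in 5 of the 8 fits with 1 array left out (adjusted p up to 0.096). The myosin count was 2 without the letter or without epileptogenic unpaired B, 3 without control unpaired B, 4 without epileptogenic paired A or control paired B, and 5 without epileptogenic paired B.

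Lipid and redox enzymes were also among the increases. Whether their rises go with those of the microglial markers was not tested. Of 22 genes of sphingolipid and ganglioside metabolism, 7 rose (31.8%) and 1 fell. Cers2, which makes the very long chain ceramides of myelin, read 5.74 and 6.01 on control A, 6.02 and 6.28 on control B, 7.25 and 7.53 on epileptogenic A, and 7.46 and 7.10 on epileptogenic B. The arrays of the conditions did not overlap (1.32, SE 0.19, limma adjusted p = 0.00118). The lysosomal hydrolases Hexa, which degrades gangliosides, and Galc, which degrades galactosylceramide, rose by 1.02 (SE 0.13) and 1.08 (SE 0.21). The count was 4 without the letter or without epileptogenic paired A, and 3 without epileptogenic unpaired B.

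Fatty acid oxidation and peroxisome genes rose in 6 of 28 cases (21.4%) and fell in 1, with a median of 0.28. Acadl, a mitochondrial acyl-CoA dehydrogenase, read 7.71 and 7.57 on control A, 8.65 and 8.17 on control B, 8.60 and 8.79 on epileptogenic A, and 9.84 and 9.36 on epileptogenic B. The highest control array, unpaired B, lay above the lowest epileptogenic array, unpaired A, and within a letter the conditions were apart (1.12, SE 0.15, limma adjusted p = 0.000801 with the letter and 0.0696 without it). None of the 28 passed without the letter. With 1 array left out the count was 1 without control unpaired A or epileptogenic unpaired B, 2 without control unpaired B, and 3 without control paired A, control paired B, epileptogenic paired A or epileptogenic paired B.

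Of 23 glutathione genes, 5 rose (21.7%) and 2 fell. Mgst1, a microsomal glutathione transferase, read 7.75 and 7.30 on control A, 7.14 and 6.51 on control B, 9.13 and 9.29 on epileptogenic A, and 8.91 and 8.50 on epileptogenic B. It was higher on all epileptogenic arrays (1.78, SE 0.16, limma adjusted p = 7.29e-05). Gpx1, which reduces hydrogen peroxide, rose by 1.16 (SE 0.17). Outside this family the copper ferroxidase Cp rose by 1.88 (SE 0.34) and the brain metallothionein Mt3 by 0.86 (SE 0.19). The glutathione count was 2 without the letter or without epileptogenic paired A, and 3 without control unpaired A, control unpaired B, control paired B, epileptogenic unpaired A or epileptogenic unpaired B. The 2 decreases were 0 without the letter and after centring, 1 without control paired A or epileptogenic unpaired A, and 0 without any other single array.

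Solute carriers, the membrane transporters, moved in both directions: of 199 genes 26 rose (13.1%) and 19 fell (9.55%), shares not far from those of all genes. Slc2a5, a fructose transporter found in microglia, read 7.83 and 7.32 on control A, 6.91 and 6.69 on control B, 8.98 and 10.16 on epileptogenic A, and 8.66 and 8.47 on epileptogenic B. Every epileptogenic array was higher (1.88, SE 0.24, limma adjusted p = 0.000637), with the paired A array the highest. The zinc transporter Slc39a1 (1.77, SE 0.23), the lysosomal nucleoside transporter Slc29a3 (1.59, SE 0.20) and the mitochondrial aspartate-glutamate carrier Slc25a13 (1.55, SE 0.21) also rose. Without the letter 8 rose and 1 fell. Rises numbered 13 without control unpaired B and 15 without epileptogenic unpaired B. Decreases numbered 10 after centring. With a control array left out they were 8 (unpaired A), 6 (unpaired B), 7 (paired A) and 12 (paired B), and with an epileptogenic array left out 9 (unpaired B) and 10 (paired A).

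The endoplasmic reticulum answers unfolded proteins by inducing chaperones through the factors ATF6 and XBP1, which act at promoter elements named ERSE (CCAAT and CCACG with 9 bases between them) and ERSE-II (ATTGG and CCACG with 1 base between them). Of 24 such chaperone and response genes, 6 rose (25%) and 0 fell. Sdf2l1, a luminal chaperone partner, read 6.60 and 6.36 on control A, 6.56 and 6.58 on control B, 8.01 and 7.50 on epileptogenic A, and 8.18 and 7.85 on epileptogenic B. The conditions were separate (1.35, SE 0.15, limma adjusted p = 0.000329). P4hb, a disulfide isomerase, rose by 0.90 (SE 0.13), Herpud1, of protein degradation, by 0.88 (SE 0.19), and the cochaperone Dnajc3 by 0.70 (SE 0.18). Dnajc3 was lost when single arrays were left out in 6 of 8 fits (adjusted p up to 0.0936). Hspa5, the central chaperone of this response, differed by -0.14 (SE 0.13, limma adjusted p = 0.515) and was named after its value was seen. The count of 6 was 3 without the letter, and 3 without control unpaired B, epileptogenic unpaired B, epileptogenic paired A or epileptogenic paired B.

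Promoter windows of 2 members that rose and of Hspa5 are shown to set these differences beside the elements. They come from RefSeq promoters on GRCr8, read 5′ to 3′ on the strand of the gene, with the element in capitals. The Herpud1 window lies at chr19:10614791-10614861 (minus strand), that of Dnajc3 at chr15:102432504-102432582 (plus strand) and that of Hspa5 at chr3:38452943-38453015 (plus strand), all upstream of the transcription start.
Herpud1: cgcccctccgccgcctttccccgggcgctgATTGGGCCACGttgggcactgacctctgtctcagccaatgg
Dnajc3: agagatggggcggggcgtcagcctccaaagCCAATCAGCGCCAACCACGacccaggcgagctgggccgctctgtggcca
Hspa5: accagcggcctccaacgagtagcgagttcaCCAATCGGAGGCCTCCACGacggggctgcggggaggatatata

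The ERSE was found, on either strand, in 22 of 33469 rat promoters (0.0657%) and the ERSE-II in 17 (0.0508%). Of the 24 genes, 20 had a promoter entry, 7 with an ERSE and 2 with an ERSE-II. Of the 9 genes with an element 2 rose, and of the 11 without one 3 rose, with medians of 0.24 and 0.17. Genes with the element were thus found both among those that rose and among those that did not.

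Other parts of protein turnover were narrower. Of 44 proteasome genes, 4 rose (9.09%) and 1 fell, a share near that of all genes. The rises were the 3 catalytic subunits of the immunoproteasome, the form that interferon induces for antigen processing, and the activator subunit Psme1 (0.90, SE 0.17). Psmb8 read 6.56 and 5.75 on control A, 5.31 and 5.68 on control B, 8.02 and 7.37 on epileptogenic A, and 7.93 and 7.25 on epileptogenic B. All epileptogenic arrays exceeded all control arrays (1.82, SE 0.23, limma adjusted p = 0.0006). Psmb9 rose by 1.64 (SE 0.25) and Psmb10 by 1.42 (SE 0.20). Tripartite motif proteins, many of which restrict viruses, had 4 rises and 4 decreases among 27 genes (14.8% each). Trim30d (2.01, SE 0.19), Trim5 (1.76, SE 0.13), Trim34 (1.56, SE 0.16) and Trim25 (1.53, SE 0.21) rose in every fit with 1 array left out. Their 4 decreases came down to 1 without the letter, after centring, or without control unpaired A, control unpaired B, control paired B or epileptogenic unpaired B, and to 2 without epileptogenic paired A. Of 26 aminoacyl-tRNA synthetases and 48 nuclear pore and import genes 0 passed, and of 104 chromatin modifying enzymes 6 rose (5.77%) and 3 fell (2.88%). The chromatin rises were 2 without control unpaired B or without the letter, and 3 without control paired A, control paired B, epileptogenic unpaired B or epileptogenic paired A. Its decreases were 5 without epileptogenic unpaired A.

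Cell cycle and replication genes rose in 11 of 43 tested cases (25.6%, with 70 on the array) and fell in 0, with a median of 0.25. Mcm7, a subunit of the replicative helicase, read 6.91 and 6.81 on control A, 6.80 and 6.82 on control B, 7.62 and 7.81 on epileptogenic A, and 7.68 and 7.25 on epileptogenic B. The control arrays lay within a narrow band under all epileptogenic ones (0.75, SE 0.16, limma adjusted p = 0.0103). The topoisomerase Top2a rose by 1.99 (SE 0.33), with its control mean under the filter level for dim probe sets. The filter used the mean over all arrays, so Top2a entered the 43 through its epileptogenic signal. Other members may have entered in the same way, which favours rises over decreases in this share, and their number is not given here. Mcm7 and Top2a were chosen after their values were seen. The cell cycle inhibitor Cdkn1a, a p53 target, rose by 1.30 (SE 0.31), although not without control paired A or epileptogenic unpaired B (adjusted p up to 0.0717). Other inhibitors of the cycle were also among the 11, so the count is not one of proliferation genes alone. The family count was 2 without the letter, 5 without control unpaired B, control paired A or epileptogenic paired A, and 3 without epileptogenic unpaired B.

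Of 17 genes on the list for excitatory projection neurons, 8 fell (47.1%) and 0 rose, with a median of -0.82 and all 17 differences negative. Neurod6, a helix-loop-helix factor of these neurons, read 8.26 and 7.97 on control A, 8.86 and 8.26 on control B, 6.43 and 7.04 on epileptogenic A, and 7.66 and 6.91 on epileptogenic B. The conditions did not overlap (-1.33, SE 0.21, limma adjusted p = 0.00225). Its relatives Neurod1 (-1.10, SE 0.22) and Bhlhe22 fell too, as did the LIM protein Lmo3 (-1.16, SE 0.16). Bhlhe22 read 11.05 and 10.48 on control A, 11.79 and 11.44 on control B, 9.09 and 9.09 on epileptogenic A, and 10.30 and 10.51 on epileptogenic B. Its lowest control array, paired A, lay just under the highest epileptogenic array, paired B, and the difference of -1.44 (SE 0.16) had a limma adjusted p of 0.000246 with the letter and 0.0563 without it. The excitatory count was 3 without the letter.

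Of 28 neuronal RNA-binding proteins, 7 fell (25%) and 1 rose. The splicing regulator Khdrbs2 fell by 0.87 (SE 0.17) and Cpeb3, which controls translation at synapses, by 0.74 (SE 0.16), the latter only with the letter. The count was 1 without the letter, 4 after centring, 3 without control unpaired B and 4 without epileptogenic unpaired B. Among nuclear receptors 3 of 20 fell (15%) and 0 rose, including the activity-induced Nr4a3 (-1.11, SE 0.13) and the thyroid hormone receptor Thrb (-0.89, SE 0.17). Of 16 inhibitory interneuron markers, 2 fell (12.5%) and 1 rose (6.25%). The calcium-binding proteins Calb2 (-1.34, SE 0.19) and, only with the letter, Calb1 (-0.90, SE 0.13) fell, and the transcription factor Maf rose by 1.02 (SE 0.16). The general markers Slc17a7, the vesicular glutamate transporter (-0.85, SE 0.40, limma adjusted p = 0.178), and Gad1, which makes GABA (-0.42, SE 0.17, adjusted p = 0.128), did not pass.

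Peptide signals and growth factors held some of the largest decreases. Trhr, the receptor of thyrotropin-releasing hormone, read 8.60 and 8.53 on control A, 9.47 and 9.65 on control B, 6.05 and 6.56 on epileptogenic A, and 6.95 and 8.34 on epileptogenic B. It was lower on all epileptogenic arrays (-2.09, SE 0.22, 4.25-fold, limma adjusted p = 0.000184). The neuropeptide Y receptor Npy1r fell by 0.83 (SE 0.15) with the letter only, and 3 of 20 neuropeptide receptors fell in all (15%). Of 23 neuropeptides and granins 3 fell (13%): Adcyap1, which encodes PACAP (-1.68, SE 0.36), Grp (-1.12, SE 0.25), a peptide of projection neurons, and Scg5 (-0.77, SE 0.14), a chaperone of prohormone processing. Adcyap1 did not pass without control unpaired B (adjusted p = 0.0555), and Grp not without control paired B, epileptogenic unpaired B or epileptogenic paired A (adjusted p up to 0.0526). The peptide count was 5 without epileptogenic paired B. Among 21 receptors for monoamines, acetylcholine and adenosine, 1 fell (4.76%): Htr2c, a serotonin receptor (-1.13, SE 0.12).

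Fibroblast growth factors and receptors fell in 4 of 11 tested cases (36.4%, with 29 on the array) with 0 rises, and in 1 case without the letter. Fgf14 (-1.37, SE 0.25) and Fgf13 (-0.97, SE 0.13) are intracellular members that bind sodium channels, whereas Fgf9 (-0.68, SE 0.13) is secreted. Fgf13 and Fgf9 passed only with the letter. The secreted neurotrophin Ntf3 fell by 1.48 (SE 0.37) with the letter and failed in 6 of the 8 fits with 1 array left out (adjusted p up to 0.084).

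The letter brought out further single decreases. Tafa1, a secreted brain protein of the chemokine-like TAFA group, read 7.56 and 7.39 on control A, 8.90 and 8.65 on control B, 6.13 and 5.36 on epileptogenic A, and 6.94 and 7.27 on epileptogenic B. The gap between control and epileptogenic arrays was small over all arrays and wide within a letter. Separation within each letter was a condition of the naming rule, so it is no separate result. Its difference of -1.70 had an SE of 0.46 without the letter and 0.18 with it, and the limma adjusted p went from 0.0617 to 0.000225. Pex5l (-1.29, SE 0.21), an HCN channel partner, and Asic2 (-1.25, SE 0.25), an acid-sensing channel, also passed only with the letter, with limma adjusted p of 0.16 and 0.096 without it.

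**Figure D3:**
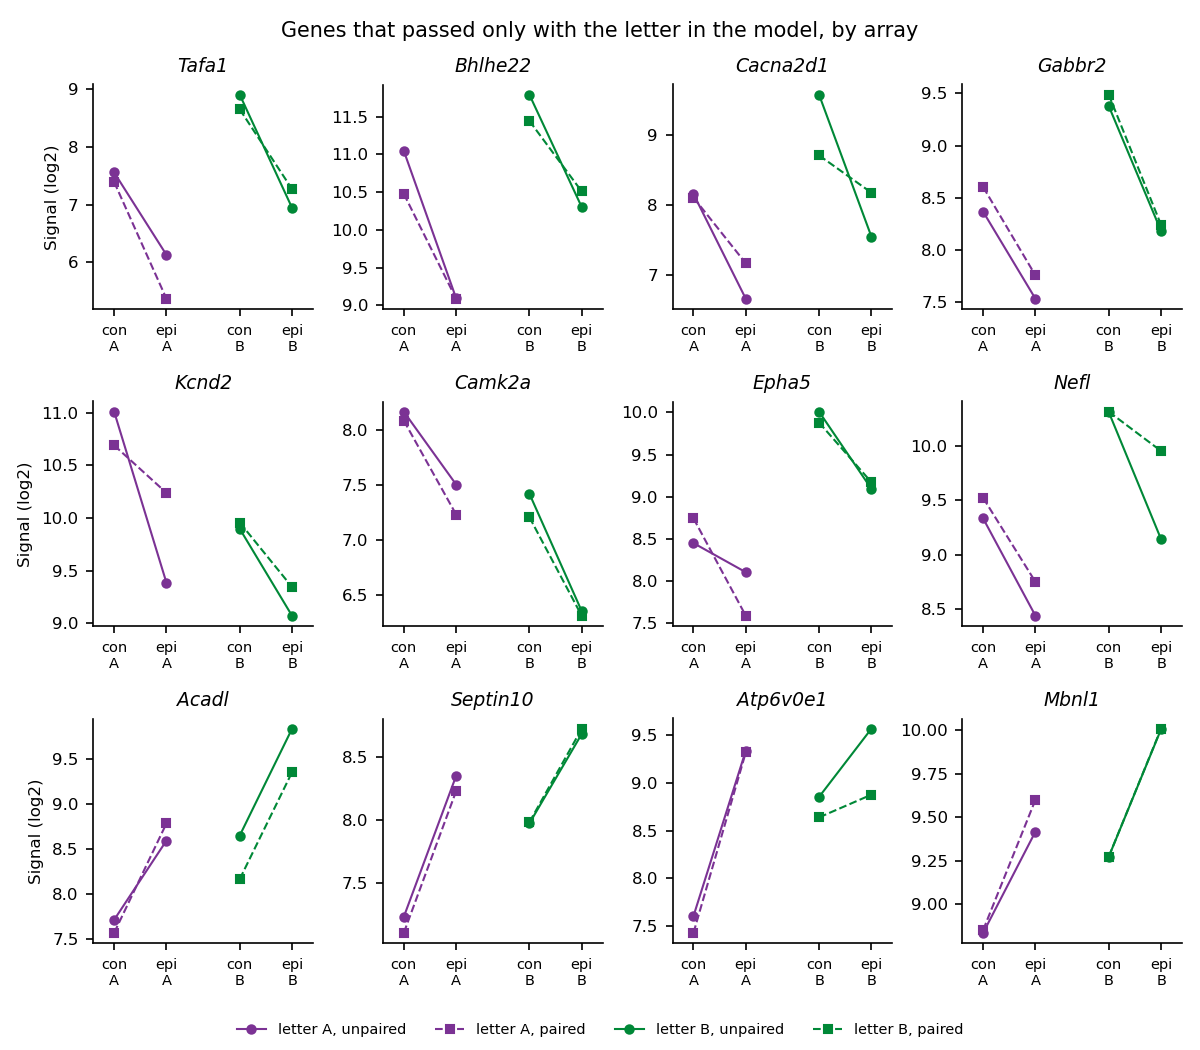
Signal (log2) of 12 genes that passed only with the letter, on control (con) and epileptogenic (epi) arrays of letter A (purple) and B (green); circles with solid lines are unpaired and squares with dashed lines paired training. Lines join arrays of the same letter and training and do not mark the same rats; all lines fall in the first 8 panels and rise in the last 4.

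Within several families some members rose while others fell. These contrasts were picked after the values were seen. Of 49 Rab GTPases, which direct vesicle traffic, 4 rose (8.16%) and 6 fell (12.2%). Rab32, of lysosome-related organelles, read 5.90 and 5.32 on control A, 5.93 and 5.58 on control B, 7.47 and 7.37 on epileptogenic A, and 8.28 and 7.82 on epileptogenic B (2.06, SE 0.18, limma adjusted p = 7.29e-05). Rab9b read 8.54 and 9.27 on control A, 8.76 and 9.0 on control B, 7.91 and 7.56 on epileptogenic A, and 7.85 and 8.49 on epileptogenic B (-0.94, SE 0.19, adjusted p = 0.00832). Neither gene's arrays overlapped between conditions. Rab3a, of synaptic vesicles and also counted among the active zone genes, fell by 0.80 (SE 0.14). Without the letter 1 Rab gene rose and 3 fell. Rises were 2 without control unpaired B, epileptogenic unpaired B or epileptogenic paired A, and decreases 3 after centring or without control unpaired A, control unpaired B, epileptogenic unpaired A or epileptogenic unpaired B.

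Septins form filaments under membranes. Septin2 read 10.98 and 10.81 on control A, 10.69 and 10.63 on control B, 11.62 and 11.66 on epileptogenic A, and 11.48 and 11.49 on epileptogenic B, a rise of 0.78 (SE 0.11, limma adjusted p = 0.00116). Septin5, which associates with synaptic vesicles, read 6.71 and 7.18 on control A, 7.12 and 6.58 on control B, 5.51 and 5.73 on epileptogenic A, and 5.79 and 6.17 on epileptogenic B, a fall of 1.10 (SE 0.22, adjusted p = 0.00776). Both were separate between the conditions, and Septin10 rose by 0.93 (SE 0.14) with the letter.

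RGS proteins speed the shut-off of G protein signals, and 4 of 14 fell (28.6%) while 1 rose. Rgs10, an RGS protein of microglia, read 8.77 and 9.37 on control A, 9.48 and 9.56 on control B, 10.37 and 10.28 on epileptogenic A, and 10.65 and 10.75 on epileptogenic B (1.22, SE 0.13, limma adjusted p = 0.000255). Rgs17 read 9.19 and 8.85 on control A, 9.58 and 9.83 on control B, 8.21 and 8.46 on epileptogenic A, and 8.78 and 8.86 on epileptogenic B (-0.78, SE 0.14, adjusted p = 0.00424). Rgs10 did not overlap between conditions, and Rgs17 was apart within letters only. Rgs4 (-0.74, SE 0.16) also fell, although not after centring (adjusted p = 0.0542). The 4 decreases were 0 without the letter in limma, with 2 after centring.

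Among RNA-binding proteins the splicing factor Mbnl1 rose, against the decreases of its neuronal counterparts. It read 8.83 and 8.85 on control A, 9.27 and 9.27 on control B, 9.42 and 9.60 on epileptogenic A, and 10.01 and 10.01 on epileptogenic B (0.70, SE 0.11, limma adjusted p = 0.00271). Like-letter arrays of a condition lay close together, and the lowest epileptogenic array was above the highest control array. Vamp3, the SNARE of constitutive endosomal fusion, rose by 0.64 (SE 0.14), although not without control unpaired B (adjusted p = 0.0509), and the syntaxin-binding Stxbp3 rose by 0.91 (SE 0.15) where Vamp2 and Cplx2 fell. Of 19 subunits of the vacuolar proton pump, which acidifies lysosomes and synaptic vesicles, 5 fell (26.3%) and 1 rose. Atp6v0e1 rose by 1.15 (SE 0.25) and its paralog Atp6v0e2 fell by 0.60 (SE 0.15), the latter not after centring (adjusted p = 0.0762) and in 4 of the 8 fits with 1 array left out. The 5 decreases were 0 after centring or without the letter. They were 0 to 3 with any 1 array left out: 2, 1, 0 and 1 without control unpaired A, unpaired B, paired A and paired B, and 3, 0, 0 and 3 without epileptogenic unpaired A, unpaired B, paired A and paired B. Of 17 clock genes 1 rose and 1 fell (5.88% each): Per2 fell by 0.76 (SE 0.14), and Per1 rose by 1.07 (SE 0.31), a call that held in 1 of the 8 fits with 1 array left out (adjusted p up to 0.138).

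**Figure D4:**
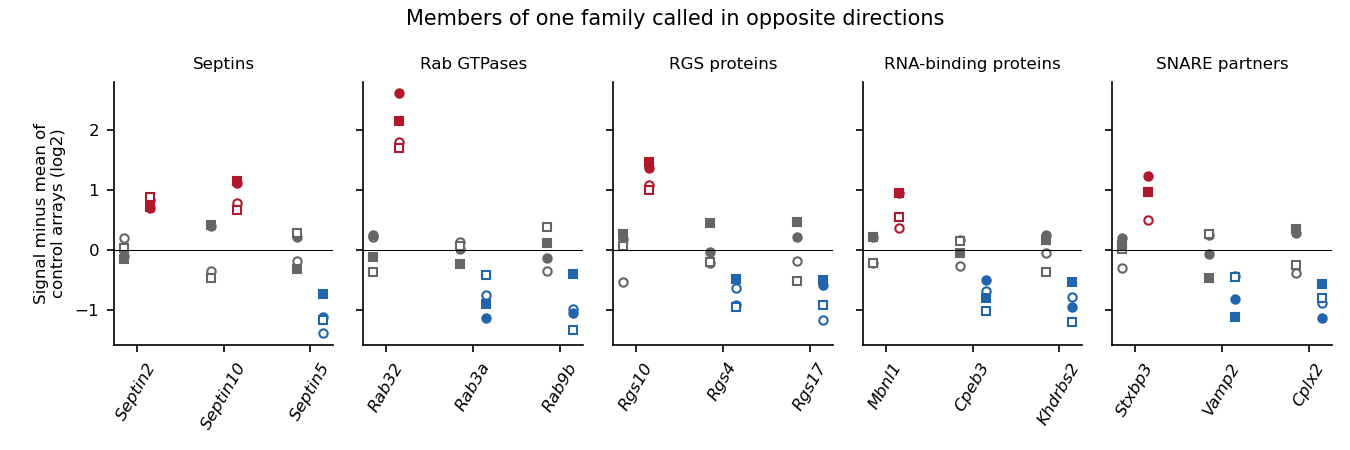
Signal of 15 genes on each array minus the mean of the 4 control arrays (log2); grey points are control arrays, red or blue points epileptogenic arrays of genes that rose or fell, open symbols letter A, filled symbols letter B, circles unpaired and squares paired training. In each panel some members rose and others fell, as Rab32 (2.06) and Rab9b (-0.94) did.

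With the symbols on a list of best-known glial and immune markers left out, the naming rule gave 15 increases, of which 10 are described. That list did not hold every immune gene, and several genes of macrophages or of interferon responses remained. Plau, the urokinase that activates plasminogen, rose by 3.10 (SE 0.44), and Pros1, protein S of the coagulation system and a ligand of phagocytic receptors, by 3.08 (SE 0.43). Rnaset2, a lysosomal ribonuclease, rose by 2.57 (SE 0.13), Fgl2, a secreted fibrinogen-like protein, by 2.57 (SE 0.19), and the growth factor Igf1 by 2.44 (SE 0.22). The interferon-induced Epsti1 (2.63, SE 0.21), the adaptor Fyb1 (2.62, SE 0.19), the lysosomal phospholipase family member Pld4 (2.63, SE 0.24), the macrophage receptor Adgre1 (2.50, SE 0.20) and Unc93b1 (2.45, SE 0.23), which escorts Toll-like receptors, also belong to them. Among signalling lipids, the phosphatase Inpp5d, a brake on phosphoinositide signals in blood-derived cells, rose by 1.38 (SE 0.20). The RNA-decay factor Zfp36l2 rose by 1.13 (SE 0.13).

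Among genes with both condition means above the filter level, the largest decrease was that of Nrarp, a target and inhibitor of Notch signalling. Myo16, given above, and the zinc finger factor Zic2 (-2.56, SE 0.36, epileptogenic mean log2 3.72, chosen after its value was seen) fell by more, to epileptogenic means below that level. Nrarp read 7.15 and 8.01 on control A, 7.70 and 7.65 on control B, 5.25 and 5.41 on epileptogenic A, and 5.06 and 5.77 on epileptogenic B. All epileptogenic arrays were far below the controls (-2.26, SE 0.20, 4.78-fold, limma adjusted p = 7.29e-05), and the letter difference was 0.09. Palmd (-1.62, SE 0.24), Adamtsl1 (-1.56, SE 0.17), a matrix protein, Plagl1 (-1.56, SE 0.28), an imprinted zinc finger factor, Hecw1 (-1.45, SE 0.23), a ubiquitin ligase of neurons, and Fstl5 (-1.42, SE 0.17), of the follistatin family, were among the next decreases by size.

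Marker lists of other cell types moved with these results, and their part in the family differences was not tested. The mean log2 signal of 24 microglial and macrophage markers, relative to the control mean, was 1.67 to 2.04 on epileptogenic and -0.51 to 0.35 on control arrays. Here 21 of 24 markers rose. The mean of 16 astrocyte markers was 0.73 to 0.95 against -0.28 to 0.26, with 7 rises, Gfap among them (2.83, SE 0.26). For 16 oligodendrocyte markers it was 0.29 to 1.02 against -0.21 to 0.07 (7 rises), and for 13 meningeal and fibroblast markers 0.40 to 1.70 against -0.25 to 0.27 (6 rises, or 3 without epileptogenic unpaired B or epileptogenic paired A). The 17 excitatory neuron markers ranged from -0.85 to -0.68 on epileptogenic and from -0.12 to 0.14 on control arrays, and the 16 interneuron markers, which overlapped between conditions, from -0.53 to -0.07 and from -0.18 to 0.31. Endothelial and mural markers (19 genes, 0.10 to 0.21 against -0.17 to 0.15) and choroid plexus markers (8 genes, -0.28 to 0.80 against -0.67 to 0.45) overlapped. Of 16 blood cell markers on the array, 1 was above the filter level.

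The letter itself separated many genes: 951 were higher on B arrays (9.18%) and 893 lower (8.62%), and the median size of the letter difference over genes was 0.33, against 0.30 for condition. Markers of striatal and central amygdala neurons, which lie next to the dissected nuclei, had a median letter difference of -0.67, with 5 of 16 lower on B arrays. Their mean ranged from -0.09 to 0.47 on A arrays and from -0.87 to -0.12 on B arrays, with epileptogenic unpaired B the lowest. Oligodendrocyte markers had a median letter difference of -0.44, with 6 of 16 lower on B. Calmodulin-dependent genes (median -0.31, 6 of 23 lower on B) and potassium channels (median -0.33, 7 of 47 lower on B) were on the same side, and GABA receptors (median 0.42, 3 of 10 higher on B) and excitatory neuron markers (median 0.26) on the other. The condition difference itself was not found to vary with the letter: 0 probe sets passed the limma test of that interaction (1098 at an unadjusted p under 0.05, smallest adjusted p = 0.404). The interaction with training likewise gave 0 (1056 unadjusted, smallest adjusted p = 0.0978), as did training alone (698 unadjusted).

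**Figure D5:**
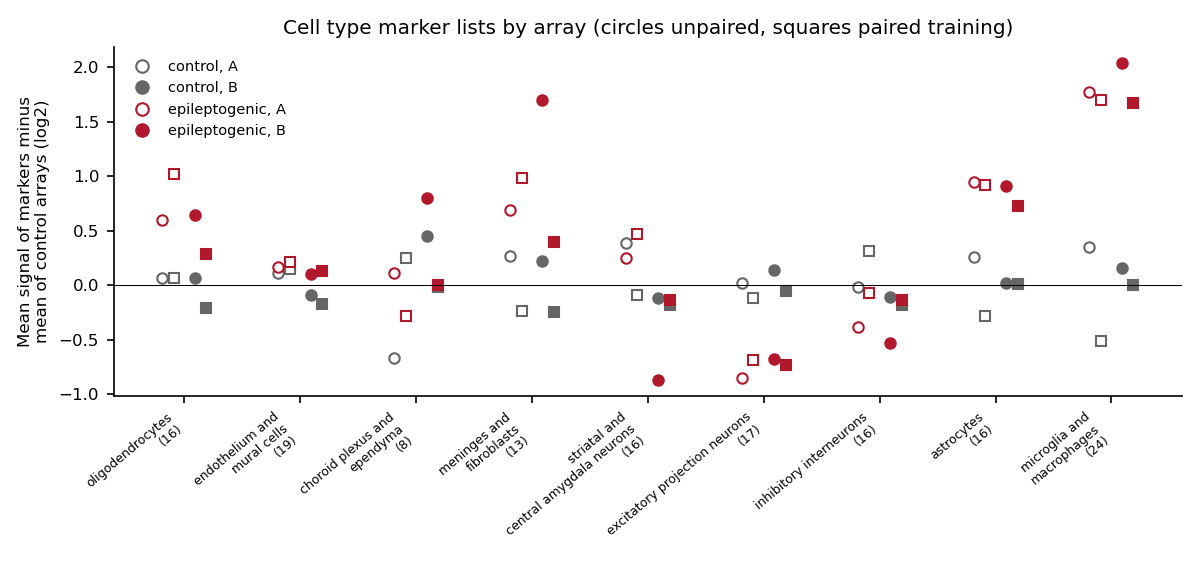
Mean log2 signal of each cell type marker list on each of the 8 arrays minus its mean over the 4 control arrays, with tested markers in brackets; grey is control, red epileptogenic, open symbols letter A and filled symbols letter B. Microglial and astrocyte markers lie higher and excitatory neuron markers lower on all epileptogenic arrays, and striatal and central amygdala markers lie lowest on epileptogenic unpaired B (-0.87).

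Over the neuronal signalling lists together (receptors, channels, peptides and synaptic scaffolds, 211 different genes), 51 fell and 3 rose, with a median difference of -0.47. Without the letter 17 fell and 0 rose, and after centring 36 fell and the median was -0.36. Over all 10364 genes, 780 fell with the letter (7.53%), 144 without it (1.39%) and 368 after centring (3.55%). The neuronal signalling decreases were 11 in a fit of the A arrays alone and 65 in a fit of the B arrays alone. Over all 18625 probe sets those fits gave 186 and 1449 decreases. Each such fit holds the arrays of a single letter, so its error rests on little data. With all letters, the neuronal signalling decreases numbered 33 without control unpaired B and 33 without epileptogenic unpaired B, and 37 or more with any other array left out.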

How the data were processed

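Laser-dissected amygdala tissue of 16 rats was measured on 8 Affymetrix rat arrays, after 2 rounds of amplification from 30 ng RNA per rat. The authors deposited signal intensities computed with MAS5, per the labels; its version and scaling are not given in the sources used here. No detection calls were used here. Of 31099 probe sets, 57 controls were left out; of the others 20826 had 1 gene symbol, 436 several and 9780 none, and 312 symbols were kept as annotated.

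Signals were taken to log2 without further normalization, and probe sets with a mean above the 40th percentile (log2 4.35, signal 20.3) were kept. limma 3.58.1 (R 4.3.3) fitted condition, training and letter with an intensity trend, and p-values were adjusted by the Benjamini-Hochberg method over all 18625 probe sets, with a threshold of 0.05. A gene was read by its brightest probe set. Arrays correlated at 0.85 to 0.925 (Pearson, log2, over 28 pairs), and 0 pairs were identical. Like-letter arrays of different groups deviated together (0.321 to 0.407 in 6 of 6 pairs of groups), so the letter pairs the samples, by the data and not by a label.

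Named genes are the 15 largest increases and decreases apart from the best-known glial and immune genes, with both condition means above the filter level and the conditions separate within each letter, the 15 largest decreases and 8 largest increases found only with the letter, up to 4 of each family, and a few references, of which those the text needed were used. Results of 1 gene family are not reported here. Members and lists were chosen with earlier results of these data known. The fit was tested on simulated data. Alternatives were no letter, group means, quantile normalization, median centring, an offset of 16, no filter or a 60th percentile filter, no trend, array weights, each letter alone, averaged probe sets per gene, and each array left out. Promoter sequences are RefSeq's (GRCr8), 250 bases before to 50 after a start. Python 3.11.15 and matplotlib 3.10.9 drew the figures.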

Additional observations from a re-analysis of the deposited data

Results flagged for a closer look

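In 10 genes named above, 1 of the 4 arrays of a condition lay apart from the other 3, by Dixon's criterion, which divides the gap to the nearest neighbour by the range of the 4 (this ratio is given in brackets). Chance sets about 1 in 20 groups apart in this way. Among control arrays these were paired A for Pcdh17 (0.881) and Sdf2l1 (0.832), unpaired A for Mcm7 (0.854), and unpaired B for P4hb (0.857). Among epileptogenic arrays they were paired A for Grin2a (0.898), Vasp (0.856), Cd53 (0.847) and Top2a (0.86), paired B for Camta1 (0.929), and unpaired B for Trim25 (0.862). Of these genes, Grin2a lost its call in fits with 1 array left out, and paired A was not the array whose removal did so.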

How the results depend on the processing

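Without the letter (no replicate block) 948 probe sets passed in place of 2942, with 674 rises and 274 decreases, and 17 neuronal signalling genes fell in place of 51. Without the intensity trend 1627 passed (932 rises, 695 decreases), with 32 such genes and 1759 probe sets for the letter in place of 3250. Median centring left 772 decreases and gave 5003 probe sets for the letter. The A arrays alone gave 553 (367 rises, 186 decreases) and 11 such genes. With 1 array left out the totals ran from 1563 to 2596, rises from 907 to 1298, decreases from 607 to 1298, letter calls from 1417 to 2683, and neuronal signalling decreases from 33 to 51. The other settings kept these counts within 1.5 times. Of 141 named genes 0 changed direction in any setting; 38 lost the call without the letter, 74 within A, 5 within B, 14 without the trend, 1 with array weights and 6 with averaged probe sets. The causes were not tested. Dim probe sets limit what can be seen: 18625 of 31042 were tested.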
